A study of Homo sapiens with 12 samples.

Results

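The genes EDNRB, GJB2, MVP and GON7 were followed in JJN3 cells, a human multiple myeloma line that grows as malignant plasma cells. They are 4 of the 59276 gene symbols in the expression table and were chosen by their measured values: the difference between MS023 and DMSO cells and that between iPRMT1 and isgCtrl cells had the same sign and were large. EDNRB, GJB2 and MVP were higher in both comparisons and GON7 was lower in both, so these 2 differences describe the genes and are given without a test. The choice did not name the difference between the control groups or the genes that work with or lie next to the 4. Nor did it name the genes with the most similar profiles. The control difference and the similar profiles rest on the same samples and values as the choice, so they are not independent of it.

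RNA of 12 samples was sequenced, with 3 replicates in each of 4 groups. JJN3 cells received DMSO, the solvent, or 10 µM MS023, an inhibitor of type I protein arginine methyltransferases (PRMTs), for 3 days. In the other two groups JJN3 cells carried Cas9 and an inducible guide RNA from lentiviral vectors and were induced with doxycycline for 3 days. The guide was a control (isgCtrl) or the PRMT1 guide iPRMT1_1 (iPRMT1, the PRMT1-KO cells of the study). By the study's methods the Cas9 cells were sorted for mCherry and the guide-bearing cells selected with puromycin, so isgCtrl and DMSO cells differ in guide, selection and doxycycline at once, and these cannot be told apart. The labels do not say whether the DMSO and MS023 cells carried Cas9 too, so Cas9 and the sorting may be further differences. iPRMT1 rests on 1 guide. Nothing in the labels says that replicates came from separate cultures, so p-values measure only the spread between these samples, which may be technical.

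PRMT1 places most of the asymmetric dimethyl marks on arginines of cellular proteins, and MS023 blocks this reaction in PRMT1 and its type I relatives. EDNRB encodes the endothelin receptor type B, a G protein-coupled receptor known best from blood vessels and from melanocytes and enteric neurons. GJB2 encodes connexin 26, which forms gap junction channels in the inner ear and in epithelia. MVP encodes the major vault protein, the main building block of the cytoplasmic vault ribonucleoprotein particle. GON7 is a small subunit of the KEOPS complex, which makes the t6A base next to the anticodon of many tRNAs.

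The values are log2(TPM+1) per gene symbol, where TPM are transcript abundances corrected for transcript length and scaled to one total per sample, so levels can be compared between genes. Between 20988 and 22241 symbols were above 0 in a sample, and the sequencing depth cannot be read from TPM. PRMT1 itself was at 653 ± 18.3 TPM in DMSO, 673 ± 23.6 with MS023, 859.8 ± 9.15 in isgCtrl and 304 ± 4.34 in iPRMT1 cells (SD, n = 3 each). All 6 plasma cell markers examined, SDC1, XBP1, IRF4, PRDM1, TNFRSF17 and POU2AF1, were expressed in each group, while none of the 3 B cell and 3 T cell markers reached a group mean of 1. A gene was called when its Benjamini-Hochberg adjusted p in limma was under 0.05 and its absolute log2 difference above 0.48. At these thresholds 30.9% of 12903 genes tested were called between MS023 and DMSO and 0.781% of 12285 between iPRMT1 and isgCtrl. Median-ratio scaling moved the median of all MS023 differences, -0.11, by 0.094, and the share of calls that were lower from 62.4% to 50.5% with MS023, from 46.9% to 31.6% in iPRMT1 and from 48.1% to 58.5% between isgCtrl and DMSO.

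EDNRB and GJB2 had the largest MS023 differences of the 4 genes, EDNRB first on the log2(TPM+1) scale (2.57 against 2.54) and GJB2 first with a pseudocount of 0.1 (2.79 against 2.70). This protein-coding gene (ENSG00000136160.17) spans bases 77895481 to 77975529 of chromosome 13, minus strand, in the GRCh38 build. EDNRB went from 7.38 ± 0.249 TPM in DMSO to 48.7 ± 2.99 TPM with MS023, 6.60-fold higher, and from 2.19 ± 0.447 TPM in isgCtrl to 5.18 ± 0.505 TPM in iPRMT1 cells, 2.36-fold higher (SD, n = 3 each). In log2(TPM+1) the 3 DMSO samples read 3.10, 3.09 and 3.02 and the 3 MS023 samples 5.66, 5.53 and 5.70. The 3 isgCtrl samples read 1.62, 1.88 and 1.49 and the 3 iPRMT1 samples 2.54, 2.58 and 2.76. The groups did not overlap in either comparison, and all iPRMT1 samples remained below all DMSO samples. The differences of the group means were 2.57 with MS023 and 0.96 in iPRMT1. By absolute size EDNRB ranked 24th among 12903 genes with MS023 and 80th among 12285 in iPRMT1. In RNA from whole cultures, more RNA in every cell and more cells with the RNA cannot be told apart. The lncRNA OBI1-AS1 overlaps EDNRB on the other strand and had group means of at most 0.25 log2(TPM+1). On the same strand the lncRNA ENSG00000233379, which starts 10 bases from the outermost annotated start of EDNRB, overlaps EDNRB too. This lncRNA was not matched to the expression values, so its level and any reads shared with EDNRB are not known here.

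GJB2, protein-coding as well (ENSG00000165474.8), sits on the same strand of chromosome 13, at bases 20187463 to 20192938. GJB2 went from 3.71 ± 0.366 to 26.3 ± 1.49 TPM with MS023, 7.08-fold higher, the largest ratio among the 4. In the guide-bearing cells it went from 1.76 ± 0.168 TPM in isgCtrl to 3.23 ± 0.283 TPM in iPRMT1, 1.83-fold higher (SD, n = 3 each). Single samples on the log2(TPM+1) scale were 2.18, 2.36 and 2.16 in DMSO and 4.72, 4.73 and 4.86 with MS023. In isgCtrl they were 1.54, 1.48 and 1.37 and in iPRMT1 2.11, 2.15 and 1.97. The MS023 samples stood far above the rest, and iPRMT1 samples lay above all isgCtrl samples and just under the lowest DMSO sample. The differences of means were 2.54 and 0.61, ranks 26 of 12903 and 318 of 12285 by absolute size.

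The bases before the start sites of EDNRB and GJB2, genes of one chromosome that were higher in the same samples, are shown to compare their promoters. The RefSeq promoter table (GRCh38.p14) held 6 starts for 3 of the 4 genes, EDNRB, GJB2 and MVP, and no entry for GON7. Capitals mark the GC box, GGGCGG on either strand, which 42.6% of 35116 promoters hold in the 250 bases before the start. The stretch for GJB2 is chr13:20192939-20193188 and that for EDNRB is chr13:77918832-77919006, both on the minus strand, written 5′ to 3′ and ending at the base before the start. Exons of other EDNRB transcripts lie in the farther bases of its window, which are left out. This EDNRB start lies inside the bounds of the gene given above, not at its outermost start, base 77975529.
GJB2: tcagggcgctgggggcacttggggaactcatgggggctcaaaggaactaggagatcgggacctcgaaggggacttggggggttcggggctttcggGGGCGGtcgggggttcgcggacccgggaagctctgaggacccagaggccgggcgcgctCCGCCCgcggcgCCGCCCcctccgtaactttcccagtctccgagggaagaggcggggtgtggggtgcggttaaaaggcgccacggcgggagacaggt
EDNRB: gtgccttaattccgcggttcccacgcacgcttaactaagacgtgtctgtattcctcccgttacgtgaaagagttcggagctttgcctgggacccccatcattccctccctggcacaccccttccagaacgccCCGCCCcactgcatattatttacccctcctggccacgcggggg
GJB2 had 3 GC boxes in its 250 bases and EDNRB had 1. The 250 bases had a GC content of 70.0% with 25 CpG in GJB2 and 58.4% with 16 CpG in EDNRB, where the medians of all promoters were 58.0% and 11. Neither window held any of the other motifs searched on both strands. These were the TATA box TATAAA, which 10.7% of promoters hold, the CCAAT box (32.0%), the E box CACGTG (6.34%), the AP-1 site TGANTCA (6.57%), the cyclic AMP response element TGACGTCA (1.65%) and the interferon response element (3.02%). None of the marked boxes overlap. A second EDNRB start and the 3 starts of MVP have annotated exons in the bases just before them and are not shown. The second EDNRB window held none of the 7 motifs, and of the 3 MVP windows only the first held any, 1 CCAAT box and 1 interferon response element.

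MVP was the most abundant of the 3 genes that were higher. Its protein-coding gene (ENSG00000013364.19) covers chromosome 16, plus strand, bases 29820394 to 29848039. MVP went from 19.6 ± 1.60 to 84.5 ± 4.45 TPM with MS023, 4.31-fold higher, and from 5.55 ± 0.388 to 8.82 ± 0.394 TPM in iPRMT1, 1.59-fold higher (SD, n = 3 each). Its DMSO samples read 4.47, 4.24 and 4.38 log2(TPM+1) and its MS023 samples 6.34, 6.49 and 6.42. The isgCtrl samples read 2.81, 2.68 and 2.65 and the iPRMT1 samples 3.24, 3.28 and 3.36. No groups overlapped, and the iPRMT1 samples were about 1 log2 unit under the DMSO samples. The differences of means were 2.05 and 0.58, ranks 65 and 372. PAGR1, on the same strand, overlaps the start of MVP, so reads there could be given to either gene, and MVP-DT overlaps MVP on the other strand. The protein-coding gene ENSG00000281348 overlaps MVP on the same strand too. Neither ENSG00000281348 nor MVP-DT was matched to the expression values, so any reads they share with MVP are not known here. Whether counting used strand is not given in the sources used here. PAGR1 had -0.32 with MS023 (limma with Benjamini-Hochberg adjustment, adjusted p = 0.00948), under the threshold on size.

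GON7 was the one gene of the 4 that was lower in both comparisons. The gene, protein-coding (ENSG00000170270.5), occupies bases 93202894 to 93207065 of chromosome 14 on the minus strand, where a gene of the other strand overlaps it. GON7 went from 20.3 ± 2.23 to 6.16 ± 0.319 TPM with MS023, 3.30-fold lower, and from 24.9 ± 1.69 to 14.8 ± 0.993 TPM in iPRMT1, 1.68-fold lower (SD, n = 3 each). The DMSO samples read 4.43, 4.55 and 4.25 log2(TPM+1) and the MS023 samples 2.81, 2.91 and 2.80. The isgCtrl samples read 4.68, 4.60 and 4.79 and the iPRMT1 samples 4.07, 3.89 and 3.98. Every MS023 sample was under every other sample, and the iPRMT1 samples were under both control groups. The differences of means were -1.57 and -0.71, ranks 259 and 209 by absolute size.

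**Figure D1:**
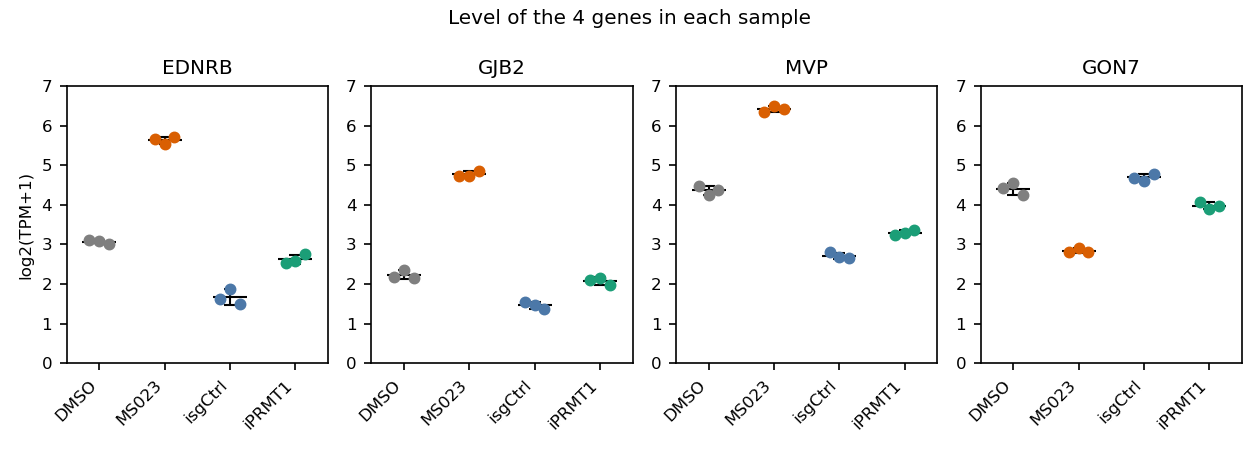
Level of each gene in log2(TPM+1) in the 3 samples of the 4 groups, with the group mean (horizontal bar) and SD (error bars). MS023 samples are the highest for EDNRB, GJB2 and MVP and the lowest for GON7, and isgCtrl and DMSO samples do not overlap for any of the 4 genes.

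The change in iPRMT1 was the smaller one for each gene, at 37.3% of the MS023 difference for EDNRB, 24.2% for GJB2, 28.5% for MVP and 45.4% for GON7 on the log2(TPM+1) scale. The groups of the 4 genes did not overlap in either comparison, which held for 59.5% of all genes tested with MS023 and 26.7% in iPRMT1. Over all genes, 40 passed both thresholds in both comparisons with one sign, 23 higher and 17 lower. The 4 belong to these 40 through the way they were chosen, and nothing is read from that. Those 40 became 1 to 5 when any one isgCtrl or iPRMT1 sample was left out, fewest without isgCtrl replicate 2. By the mean of the 2 absolute differences EDNRB (1.76), GJB2 (1.57), MVP (1.32) and GON7 (1.14) ranked 2nd, 3rd, 5th and 11th of these 40. The choice named no limit of size. Among genes of like size outside it, CCL3L3 (2.22), LGMN (1.53), LGALS1 (1.29), AC005224.3 (1.25) and UBD (1.19) were higher in both, and AC009159.3 (1.27), AC079466.1 (1.24) and CTAG1A (1.11) were lower in both.

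The isgCtrl cells themselves differed from the DMSO cells in 3 of the 4 genes, against the direction of the iPRMT1 change. As background, 13.9% of 12661 genes tested were called between isgCtrl and DMSO, and the groups of 51.7% did not overlap. MVP had a difference of -1.65 on the log2 scale (SE 0.0817, limma with Benjamini-Hochberg adjustment, adjusted p = 2.1e-04), at 5.55 against 19.6 TPM. EDNRB had -1.40 (SE 0.107, limma, adjusted p = 8.9e-04) and GJB2 had -0.77 (SE 0.0815, limma, adjusted p = 0.00214). All 3 isgCtrl samples were under all 3 DMSO samples for each of these genes. GON7 was 0.28 higher in isgCtrl (SE 0.0971), which passed neither threshold (limma, adjusted p = 0.0701), although no isgCtrl sample was as low as a DMSO sample. Thus 3 of the 4 were called, and the groups of all 4 did not overlap. A two-sided exact permutation test gave p = 0.1 for each of the 4 genes, the smallest that 3 samples against 3 allow. The isgCtrl and DMSO samples are also those that the 2 other comparisons start from, so this difference is not independent of them.

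The order of the groups was the same for EDNRB, GJB2 and MVP, with isgCtrl lowest, then iPRMT1, DMSO and MS023. The iPRMT1 mean lay 68.3% of the way from isgCtrl to DMSO for EDNRB, 79.8% for GJB2 and 35.4% for MVP. Against DMSO, iPRMT1 cells had -0.44 for EDNRB, -0.16 for GJB2 and -1.07 for MVP, in log2(TPM+1). For GJB2 this distance was only a little above the spread of the groups (SD 0.0983 in iPRMT1 and 0.110 in DMSO). These neighbours in the order are thus not clearly apart, although their samples did not overlap. For EDNRB and MVP each step of the order was well above the SD of either group. For GON7 the order ran from MS023 through iPRMT1 and DMSO to isgCtrl, and iPRMT1 minus DMSO was -0.43.

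The genes that work with the 4 were examined in 5 lists of 53 genes in all, picked for their known roles with earlier results of these data known. Over these lists, 3 genes were called higher and 4 lower of 23 tested with MS023, which is 7 of 23 against 30.9% of all genes. The 3 include ABCB1, which was tested through its MS023 mean alone. In iPRMT1 0 were called higher and 1 lower of 22, where 0.781% of all genes were called. Between isgCtrl and DMSO 2 were called higher and 0 lower of 22, where 13.9% of all genes were called. The median difference over the lists was -0.069 with MS023, where all genes had -0.11, and -0.021 in iPRMT1, where all genes had -0.038. Between isgCtrl and DMSO it was 0.053, where all genes had 0.066. The MS023 effect minus the iPRMT1 effect had an adjusted p under 0.05 in limma for 7 of 23 genes, and for 35.6% of all 13256 genes tested.

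The partners of EDNRB were nearly absent on the side of its ligands. The endothelin genes EDN1, EDN2 and EDN3 and the other receptor, EDNRA, had group means of at most 0.13 log2(TPM+1), and of the converting enzymes that cut endothelins to their active form, only ECE1 was tested. ECE1 had 0.29 with MS023 (limma, adjusted p = 0.129) and -0.081 in iPRMT1 (adjusted p = 0.694). Of the G proteins and phospholipases that the receptor can act through, 7 of 9 were tested. With MS023, 3 of these 7 had a difference above 0 and 4 below 0. Of the 7, 2 were called, both lower, where 30.9% of all genes were called. GNAQ, the alpha subunit of Gq, fell by 0.84 with MS023 (limma, adjusted p = 0.00784) and by 0.48 in iPRMT1 (adjusted p = 0.0479), just past both thresholds there. Leaving out any isgCtrl or iPRMT1 sample ended the iPRMT1 call of GNAQ, as did the replicate number as a block. GNAI1, an alpha subunit of the inhibitory G proteins, fell by 0.95 with MS023 (limma, adjusted p = 0.00453) and had 0.11 in iPRMT1 (adjusted p = 0.703), and these effects differed by -1.06 (adjusted p = 0.00491). GNA11, the close relative of GNAQ, was 0.55 higher in isgCtrl than in DMSO (limma, adjusted p = 0.0114) and had -0.23 with MS023 (adjusted p = 0.124). GNAI2, the most abundant of the 7 at 7.09 log2(TPM+1) in DMSO, had 0.16 with MS023 (limma, adjusted p = 0.0535). GNAI3 had -0.32 with MS023 (limma, adjusted p = 0.00604), under the threshold on size. PLCB1 and PLCB3 had 0.29 and 0.044 with MS023 (limma, adjusted p = 0.195 and 0.784).

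Connexins other than GJB2 were mostly at or near 0 in JJN3. Of 23 other connexins and pannexins, 5 were tested. With MS023 1 of these 5 was called, where 30.9% of all genes were, and in iPRMT1 0 of 5, where 0.781% were. GJD3 rose by 0.52 with MS023 (limma, adjusted p = 0.00554), a call lost without DMSO replicate 2 (0.44) or MS023 replicate 2, and its difference was 0.81 with a pseudocount of 0.1. GJA1, connexin 43 and the most abundant of them at 6.10 log2(TPM+1) in DMSO, had -0.27 with MS023 (limma, adjusted p = 0.0356), under the threshold on size. GJC1 had -0.82 with MS023 (limma, adjusted p = 0.0619) and 0.28 in iPRMT1 (adjusted p = 0.160). GJA3 and GJB6, the connexin genes that lie next to GJB2, had means of 0.11 and 0.0 in DMSO and 0.92 and 0.054 with MS023, too low to be tested. PANX1, a pannexin channel, had 0.025 with MS023 (limma, adjusted p = 0.907).

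The other two vault proteins differed in direction with MS023. TEP1, which binds the vault RNA, rose by 0.71 with MS023 (limma, adjusted p = 9.3e-04) and had 0.29 in iPRMT1 (adjusted p = 0.504). PARP4, the vault poly(ADP-ribose) polymerase, had -0.46 with MS023 (limma, adjusted p = 0.0145), under the threshold on size, and -0.19 in iPRMT1 (adjusted p = 0.184). The 4 vault RNA genes were listed at 0 in all samples. Whether the method could measure these RNAs is not known here, so their absence is not read from this. MVP is also known as the lung resistance-related protein, and the drug efflux pumps often named beside it were measured with it. ABCB1, the P-glycoprotein pump, was at 0.32 ± 0.263 log2(TPM+1) in DMSO, 1.31 ± 0.273 with MS023, 0.041 in isgCtrl and 0.075 in iPRMT1. Only its MS023 mean passed the value of 1 needed for a test. Its call with MS023 (limma, adjusted p = 0.00661) thus depends on that filter, and nothing is read from it. At these low levels the ABCB1 difference of 0.99 became 2.29 with a pseudocount of 0.1. ABCC1 was 0.81 higher in isgCtrl than in DMSO (limma, adjusted p = 0.00337), the opposite side from MVP, and had -0.069 with MS023 (adjusted p = 0.640).

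The KEOPS subunits OSGEP, TP53RK, TPRKB and LAGE3 and the enzymes YRDC and OSGEPL1 were all tested. With MS023 2 of the 6 were called, both lower, where 30.9% of all genes tested were called and 62.4% of those calls were lower. In iPRMT1 0 of 6 were called, where 0.781% of all genes were. OSGEPL1, the mitochondrial relative of the catalytic subunit OSGEP, fell by 1.20 with MS023 (limma, adjusted p = 6.9e-04) and had -0.24 in iPRMT1 (adjusted p = 0.300). TPRKB fell by 0.61 with MS023 (limma, adjusted p = 0.00413) and had -0.035 in iPRMT1 (adjusted p = 0.846). For both the MS023 effect was lower than the iPRMT1 effect, with differences of -0.96 (limma, adjusted p = 0.00175) and -0.57 (adjusted p = 0.00702). OSGEP had -0.27 with MS023 (limma, adjusted p = 0.113). TP53RK and LAGE3 had 0.069 and 0.13 with MS023 (adjusted p = 0.448 and 0.158 in limma). YRDC, which makes the intermediate that KEOPS uses, had 0.35 with MS023 (limma, adjusted p = 0.0207) and 0.46 between isgCtrl and DMSO (adjusted p = 0.0111), both under the threshold on size.

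**Figure D2:**
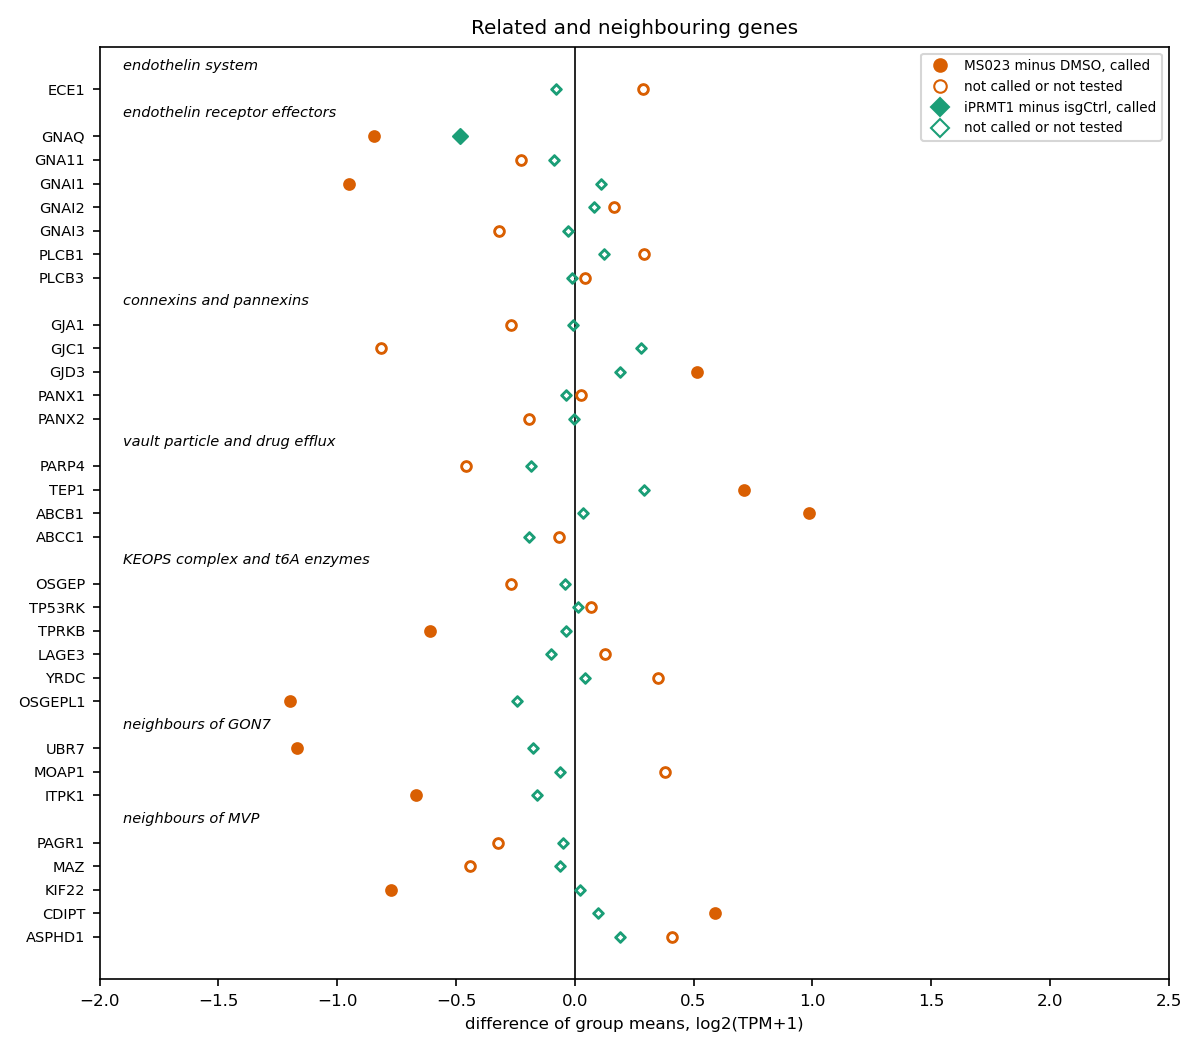
Differences of group means in log2(TPM+1) for related genes and for neighbours of GON7 and MVP, with MS023 minus DMSO as circles and iPRMT1 minus isgCtrl as diamonds. Filled symbols were called and open symbols were not called or not tested. MS023 differences run from -1.20 for OSGEPL1 to 0.99 for ABCB1, and GNAQ is the one gene called in iPRMT1.

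Genes that start within 100 kb of the outermost annotated start of each of the 4 were looked up in GENCODE v44. Of them 8 were tested, all beside GON7 or MVP. For EDNRB this start, base 77975529, is not the one whose promoter is shown. With MS023 1 was called higher and 3 lower of these 8, where 30.9% of all genes were called, and in iPRMT1 0 of 8, where 0.781% were. Between isgCtrl and DMSO 1 of 8 was called, where 13.9% of all genes were. There 7 of 8 had a difference above 0, where the median of all genes was also above 0, at 0.066. UBR7, a ubiquitin ligase gene, starts 176 bases from GON7 on the other strand, head to head with it. UBR7 fell by 1.17 with MS023, from 4.66 to 3.49 log2(TPM+1) (limma, adjusted p = 2.8e-04), and had -0.18 in iPRMT1 (adjusted p = 0.260), where GON7 had -0.71. ITPK1, an inositol phosphate kinase, fell by 0.67 with MS023 (limma, adjusted p = 0.00538) and MOAP1 had 0.38 (adjusted p = 0.00874). ITPK1 was the neighbour called between isgCtrl and DMSO, 0.64 higher in isgCtrl (limma, adjusted p = 0.00658), and MAZ had 0.479 (adjusted p = 0.00345), just under the threshold on size. Beside MVP, the kinesin KIF22 fell by 0.77 (limma, adjusted p = 2.7e-04) and CDIPT, the phosphatidylinositol synthase, rose by 0.59 (adjusted p = 7.8e-04). MAZ, PAGR1 and ASPHD1 had -0.44, -0.32 and 0.41 with MS023 and were not called. The neighbours of EDNRB and GJB2 that are in the table had no group mean above 1.

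The genes whose profile over the 12 samples was most like that of each gene were ranked by Pearson's r among 13255 others, as a description, since all 12 samples are shared and the MS023 samples weigh most. For EDNRB they were TNFRSF10B, a death receptor for TRAIL (r = 0.996), FUCA1, a lysosomal fucosidase (r = 0.996), LAPTM5 (r = 0.995), LINC01229 (r = 0.992) and CDKN1A, the cell cycle inhibitor p21 (r = 0.992). For GJB2 they were HERPUD1, an endoplasmic reticulum stress gene (r = 0.995), GLMP (r = 0.995), CDKN1A (r = 0.995), LPXN (r = 0.994) and SYNGR2 (r = 0.993). For MVP they were DNAJC1 (r = 0.999), LGMN, the lysosomal protease legumain (r = 0.997), PBXIP1 (r = 0.997), BST2, the interferon-induced protein tetherin (r = 0.997) and RABAC1 (r = 0.996). LGMN moved about as far as MVP, from 5.60 to 7.89 log2(TPM+1) with MS023 and from 3.85 in isgCtrl to 4.63 in iPRMT1. For GON7 they included DMAC1 (r = 0.987), BRWD1 (r = 0.986), BCL2L12 (r = 0.984) and MRPS16, a mitochondrial ribosomal protein (r = 0.979). Among the 4 genes, r was 0.988 between EDNRB and GJB2, 0.983 between EDNRB and MVP, and 0.964 between GJB2 and MVP. Between GON7 and the others it ran from -0.954 to -0.876. The choice by shared sign and large size in these samples makes such r likely, so nothing is read from them. By r with GJB2, EDNRB ranked 24th and MVP 222nd among the 13255 genes.

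**Figure D3:**
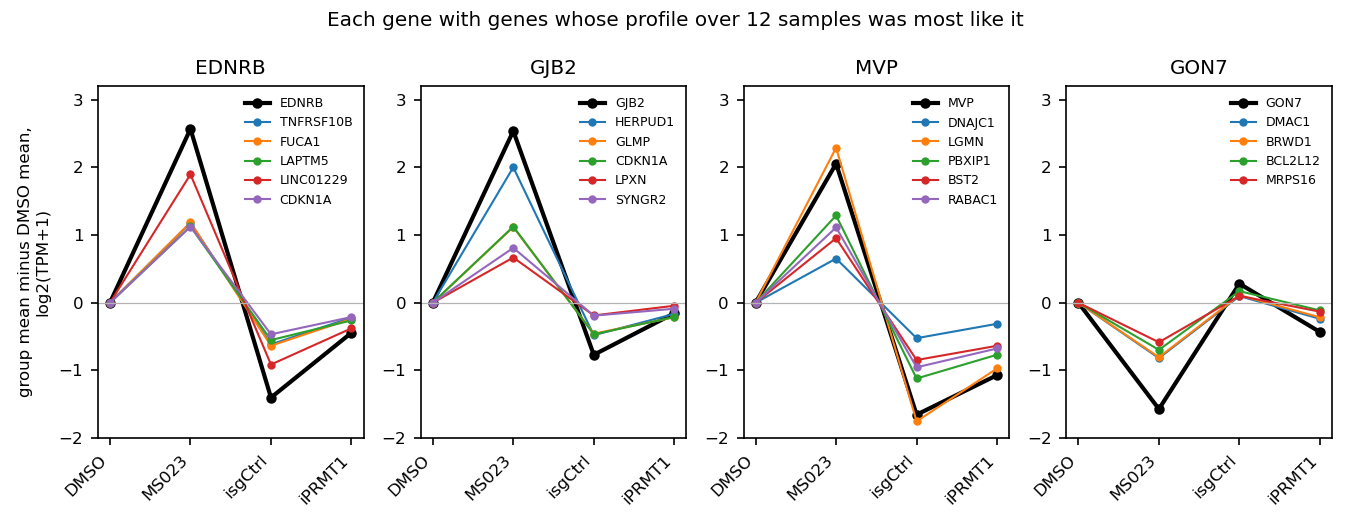
Group means minus the DMSO mean in log2(TPM+1) for each of the 4 genes (black) and genes among the 5 with the highest Pearson's r to it over 12 samples. The genes beside EDNRB, GJB2 and MVP share the dip in isgCtrl and the peak with MS023, mostly at a smaller size, and those beside GON7 are lower with MS023 too.

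EDNRB and GJB2 are better known from other tissues, so markers of those tissues were read in the same samples. The summed level of the 6 plasma cell markers was 722 to 763 TPM in DMSO, 1151 to 1200 with MS023, 815 to 840.1 in isgCtrl and 801 to 811 in iPRMT1. The summed B cell and T cell markers were at most 0.307 and 0.736 TPM in any sample. Of the 3 endothelial markers CDH5 and VWF had group means of at most 0.11 log2(TPM+1), while PECAM1, which plasma cells can express too, was at 1.38 in DMSO, 2.92 with MS023, 0.52 in isgCtrl and 0.41 in iPRMT1. The summed TPM of these 3 genes was 1.09 to 2.30 in DMSO, 5.38 to 7.45 with MS023, 0.200 to 0.826 in isgCtrl and 0.0931 to 0.626 in iPRMT1, and its part in the EDNRB and GJB2 results was not tested. Of the 4 melanocyte markers TYR was listed at 0 in all samples and PMEL had group means of at most 0.77 log2(TPM+1). MITF was expressed, at 3.52 in DMSO, 3.27 with MS023, 4.14 in isgCtrl and 4.01 in iPRMT1. SOX10 was at 1.11, 0.99, 1.09 and 0.60 in the same order. The sum of the 4 markers was 11.4 to 13.4 TPM in DMSO, 9.59 to 10.7 with MS023, 16.4 to 20.9 in isgCtrl and 15.1 to 16.5 in iPRMT1. Their part in the EDNRB result was not tested. Of the epithelial markers KRT14 had group means of at most 0.0078. CDH1 was at 0.47 in DMSO, 1.68 with MS023, 0.79 in isgCtrl and 0.89 in iPRMT1, and KRT5 at 0.075, 0.45, 0.026 and 0.19, both highest with MS023 as GJB2 was, and their part in the GJB2 result was not tested. The sum of the 4 epithelial markers, most of it EPCAM, was 90.0 to 93.0 TPM in DMSO, 61.4 to 66.3 with MS023, 73.3 to 77.3 in isgCtrl and 85.4 to 88.0 in iPRMT1.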

How the data were processed

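RNA-seq of 12 JJN3 samples was analysed from the table of log2(TPM+1) values per gene symbol that the authors deposited. By the study's methods and the labels' tool list, the authors used Trimmomatic for trimming, STAR for alignment (hg38, GENCODE V35) and Salmon for quantification, whose versions are not given in the sources used here. A gene entered a comparison when its mean log2(TPM+1) passed 1 in one of the groups compared. The 6 samples were fitted with limma 3.58.1 in R 4.3.3 (eBayes without trend), with Benjamini-Hochberg adjustment over every gene entered. The effect of MS023 minus that of iPRMT1 was fitted on all 12 samples and called at an adjusted p under 0.05. Only the difference of the 4 genes between isgCtrl and DMSO was also tested with two-sided exact permutation tests (scipy 1.17.1). The code was tested on simulated data. Folds are ratios of mean TPM, and differences are of log2(TPM+1), which understates changes of low genes. Positions are from GENCODE v44 on the same build, and gene names were matched by current symbol, so a neighbour listed under an older symbol was not used here.

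The 4 genes and the lists were chosen with earlier results of these data known. Genes named are the 4, the genes of the 5 lists and neighbours within 100 kb that were tested, the 5 most similar genes of each (1 of those of GON7 is not reported here) and PRMT1, and the few genes given as being of like size, or as too low to be tested, were named after their values were seen. Replicate numbers 1 to 3 occur in each group by the titles. Samples with the same number had correlations of their deviations from the group means of 0.021 to 0.102 with MS023, -0.142 to 0.070 in iPRMT1 and -0.228 to -0.032 between isgCtrl and DMSO, so the numbers were not taken as pairs. Alternatives tried are a pseudocount of 0.1, no filter or a filter in every sample, median-ratio and quantile scaling, eBayes with trend, all 12 samples in 1 fit, the replicate block, no threshold on size and each replicate left out.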

Additional observations from a re-analysis of the deposited data

Results flagged for a closer look

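The MS023 effect minus the iPRMT1 effect had an adjusted p under 0.05 in limma for 7 of 23 related genes and 7 of 8 neighbours, where 35.6% of all genes tested did. The genes tied to a partner of the 4 were GNAI1 (-1.06), GNAI3 (-0.29), GJA1 (-0.26), GJC1 (-1.09), ABCB1 (0.95), TPRKB (-0.57) and OSGEPL1 (-0.96) on the log2(TPM+1) scale. The neighbours were UBR7 (-0.99), MOAP1 (0.44) and ITPK1 (-0.51) beside GON7, and PAGR1 (-0.27), MAZ (-0.38), KIF22 (-0.80) and CDIPT (0.49) beside MVP. Calls of GJA1, GJC1, ITPK1, PAGR1 and GNAI3 were lost in 12, 5, 8, 4 and 1 of 17 alternative fits, with adjusted p of up to 0.206 in limma, and the 9 others were called in all 17. GNAI3 lost its call under quantile normalization (-0.17) and PAGR1 under both scalings (-0.19 and -0.17) and without isgCtrl replicate 1 (-0.24) or iPRMT1 replicate 1 (-0.25). GJC1 lost it without MS023 replicate 1 or 3, isgCtrl replicate 2, or iPRMT1 replicate 1 or 3, at -1.08 to -1.03. ITPK1 lost it without DMSO replicate 1 or 3, MS023 replicate 1 or 2, isgCtrl replicate 2 or any iPRMT1 replicate, at -0.52 to -0.41. GJA1 lost it under both scalings (-0.18 and -0.20) and without any one replicate except DMSO replicate 2 and MS023 replicate 3, at -0.28 to -0.22. The ABCB1 difference was 2.09 with a pseudocount of 0.1. ABCB1 entered this fit only through its MS023 mean, so nothing is read from its call. UBR7 starts head to head with GON7, and its values stand beside those of GON7 in the results.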

How the results depend on the processing

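No alternative turned the direction of a difference of EDNRB, GJB2, MVP or GON7. With a pseudocount of 0.1, MS023 minus DMSO was 2.70 for EDNRB, 2.79 for GJB2 and -1.70 for GON7, and iPRMT1 minus isgCtrl was 1.22 for EDNRB, 0.84 for GJB2 and 0.66 for MVP. Median-ratio scaling gave MS023 differences of 2.66 for EDNRB and 2.16 for MVP. Quantile normalization gave 2.68 for EDNRB, 2.65 for GJB2, 2.18 for MVP and -1.42 for GON7. Between isgCtrl and DMSO, EDNRB, GJB2 and MVP were called in every alternative (limma with Benjamini-Hochberg adjustment, adjusted p of at most 0.0122, 0.0183 and 0.00638, each with the replicate block), and GON7 in none. For GON7 the limma adjusted p was under 0.05 with eBayes with trend (0.0442) and with all 12 samples in 1 fit (0.0262). There its difference of 0.28 was under the threshold on size. With 1 replicate left out these differences ran from -1.51 to -1.31 for EDNRB, from -0.81 to -0.71 for GJB2, from -1.71 to -1.60 for MVP and from 0.20 to 0.35 for GON7.

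Calls in iPRMT1 minus isgCtrl were fragile. Among all genes there were 96, against 48 with no filter on low values, 0 in limma once replicate number entered as a block (2054 genes had an unadjusted p under 0.05 in that fit) and 2 to 21 with 1 replicate left out, fewest without isgCtrl replicate 2. The 40 genes called in both with one sign became 23, 0 and 1 to 42, and 67 with all 12 samples in 1 fit. The count of related genes called in iPRMT1, 1 (GNAQ), was 0 with a pseudocount of 0.1, with no filter, with either scaling, with all 12 samples in 1 fit, with the replicate block and with any of the 6 replicates left out. Without a threshold on size, 11 related genes were called with MS023 in place of 7 and 4 between isgCtrl and DMSO in place of 2. With the filter above 1 in every sample, which left ABCB1 and GJD3 untested, 5 related genes were called with MS023. The replicate block ended no other call of a related or neighbouring gene.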
